A study of Mus musculus with 6 samples.

Results

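Collagens are the main structural proteins of the matrix around mammary tumour cells, and their chain genes are described here in tumours from mice dosed with a liver X receptor (LXR) agonist or with vehicle. Members were all gene rows whose symbol has the form Col, a number, a and a number, with Col17a1, the collagen of hemidesmosomes, left out. This gave 43 of the 55487 gene rows, of which 11 encode fibrillar chains, 6 basement membrane (type IV) chains, 9 chains of the fibril-associated collagens with interrupted triple helices (FACIT) and 17 other chains. All tumours came from MMTV-PyMT mice, in which the mouse mammary tumour virus promoter drives the polyoma virus middle T oncoprotein in mammary epithelium, so agonist and vehicle groups share that transgene. The agonist group held 3 tumour libraries, whose titles name the LXR ligand DMHCA, from mice dosed orally through Medigel cups without a break once they were 6 weeks old. The vehicle group held 3 tumour libraries, with the same route and starting age. The titles of a group share 1 code, the deposited tables carry a code for each library, and what the codes stand for is not given here. No source says that each tumour is from its own mouse, so every p-value reflects differences among these libraries only, part of which may be technical. The age at collection was also not stated.

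A collagen molecule is a rope of 3 chains wound around each other, made from 1 kind of chain or from several. Fibrillar collagens such as types I, III and V, secreted mainly by fibroblasts, pack into the fibres that give tissue its tensile strength, while type IV chains form the sheet-like basement membrane beneath epithelium and around vessels. FACIT collagens sit on the surface of fibrils, and type VI makes beaded filaments that link cells to the matrix. In breast tumours, dense fibrillar collagen is known as a feature of the stroma.

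Levels are given in TPM, the share of a library's transcripts scaled for gene length, and differences as log2 fold changes of agonist over vehicle from the counts. Each library held between 36577451 and 42595799 expected counts, RSEM's estimate of the reads of each gene, and between 97930 and 317256 of these fell on collagen chains. In CPM, counts scaled to library size, 3 counts equal 0.0704 to 0.082, a floor that covers counting error only. Of the 43 genes, 39 passed the filter on low counts. The other 4 were Col4a3, with between 3 and 17 counts in a library, Col19a1 with between 5 and 13, Col26a1 with between 2 and 39, and Col6a4 with between 0 and 4. The 10 luminal epithelial markers summed to between 3297 and 3661 TPM in agonist libraries and between 3716 and 3853 TPM in vehicle libraries. In bulk tumour RNA, fewer cells of a type and less RNA per cell cannot be told apart.

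No collagen chain was called different between agonist and vehicle tumours. With edgeR's quasi-likelihood test, 0 of the 39 tested chains passed an adjusted p of 0.05, beside 0% of the 17396 genes tested, and the smallest adjusted p of a chain was 0.99. At an unadjusted p under 0.05 there was 1 chain, positive in sign, 2.56% of those tested, beside 3.09% of all genes. Of all genes, 0.719% were past this p and higher with agonist and 2.37% past it and lower. DESeq2 also called 0 chains, with 2 at an unadjusted p under 0.05, where 3.84% of all genes were. Over all genes it called 4, 0.0231% of those it tested. In CPM scaled further by TMM factors, which correct library sizes for composition, 0 of 39 chains had groups without overlap, beside 7.24% of all genes (3.02% higher and 4.22% lower with agonist). By library size alone, a scaling added after the data were seen, there were 2, Col4a5 and Col6a3, both higher with agonist, 5.13% of the chains beside 8.29% of all genes. The log2 fold change was positive in 25 of the 39 chains, 64.1%, where 49.3% of all genes were positive. The median over the chains was 0.09, beside -0.0049 over all genes. Without vehicle replicate 3 only 14 chains were positive and the median was -0.15, and without vehicle replicate 2 there were 28 positive chains and a median of 1.04. In that last fit 13 chains had an unadjusted p under 0.05, a larger share of the chains than the 13.6% of all genes at that p. Of these chains 0 passed the adjusted threshold.

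**Figure D1:**
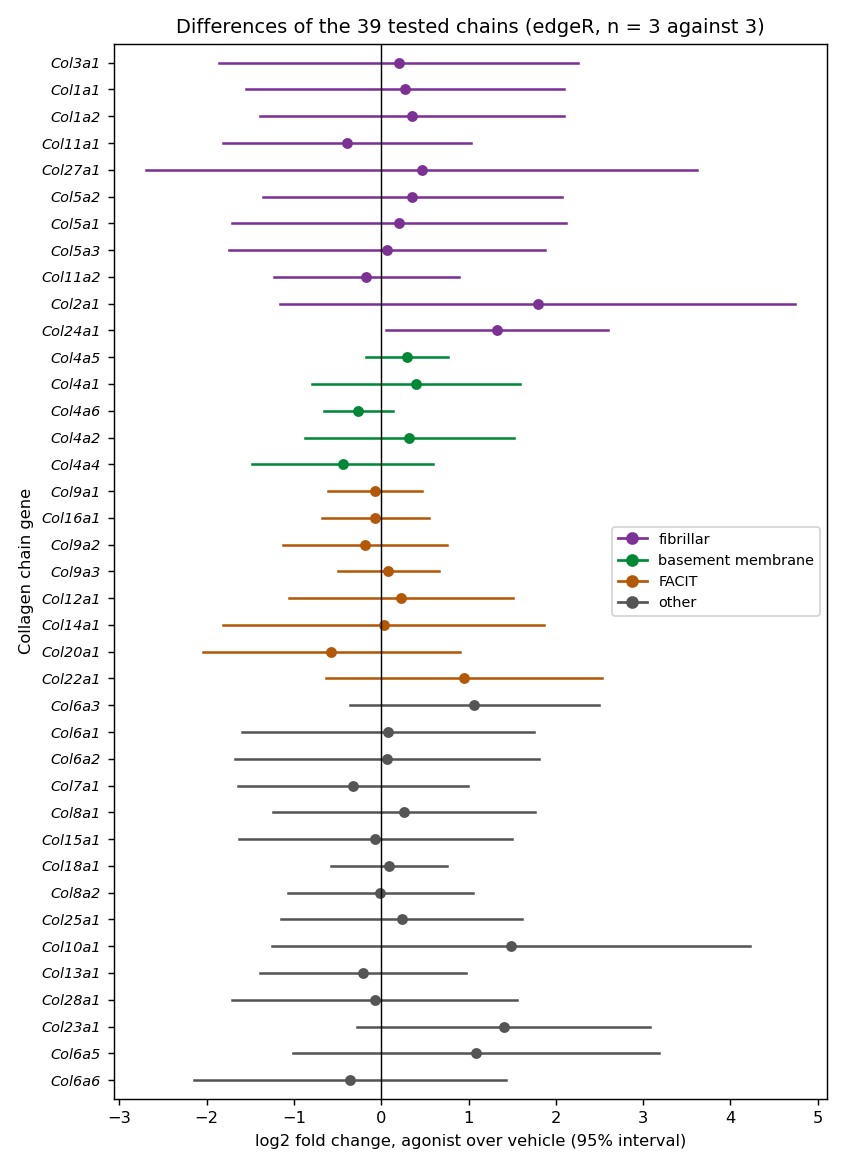
Log2 fold change of agonist over vehicle (x axis) with its 95% interval for each of the 39 tested collagen chain genes (y axis), coloured by class and, within a class, in order of falling mean TPM. Every interval includes 0 except that of Col24a1, which runs from 0.05 to 2.60.

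The tumours of a group carried the chains unevenly. On the log2 scale of TMM-scaled CPM the median within-group SD was 0.90 over the 39 chains and 0.32 over all genes tested. The vehicle tumours held most of that spread, with a median SD of 0.33 among agonist libraries and 1.08 among vehicle libraries for the chains, beside 0.24 and 0.33 over all genes. The vehicle SD was the larger in 30 of the 39 chains, 76.9%, and in 63.9% of all genes. Vehicle replicate 2 had the highest TPM of 14 chains and vehicle replicate 3 the lowest of 21. All collagen chains together made up between 0.0794% and 0.196% of the TPM of a library, with 1953, 1597 and 1638 TPM in agonist libraries and 1762, 1959 and 794 TPM in vehicle libraries. Only vehicle replicate 3 stood below the rest, and the agonist values lay within the vehicle range.

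**Figure D2:**
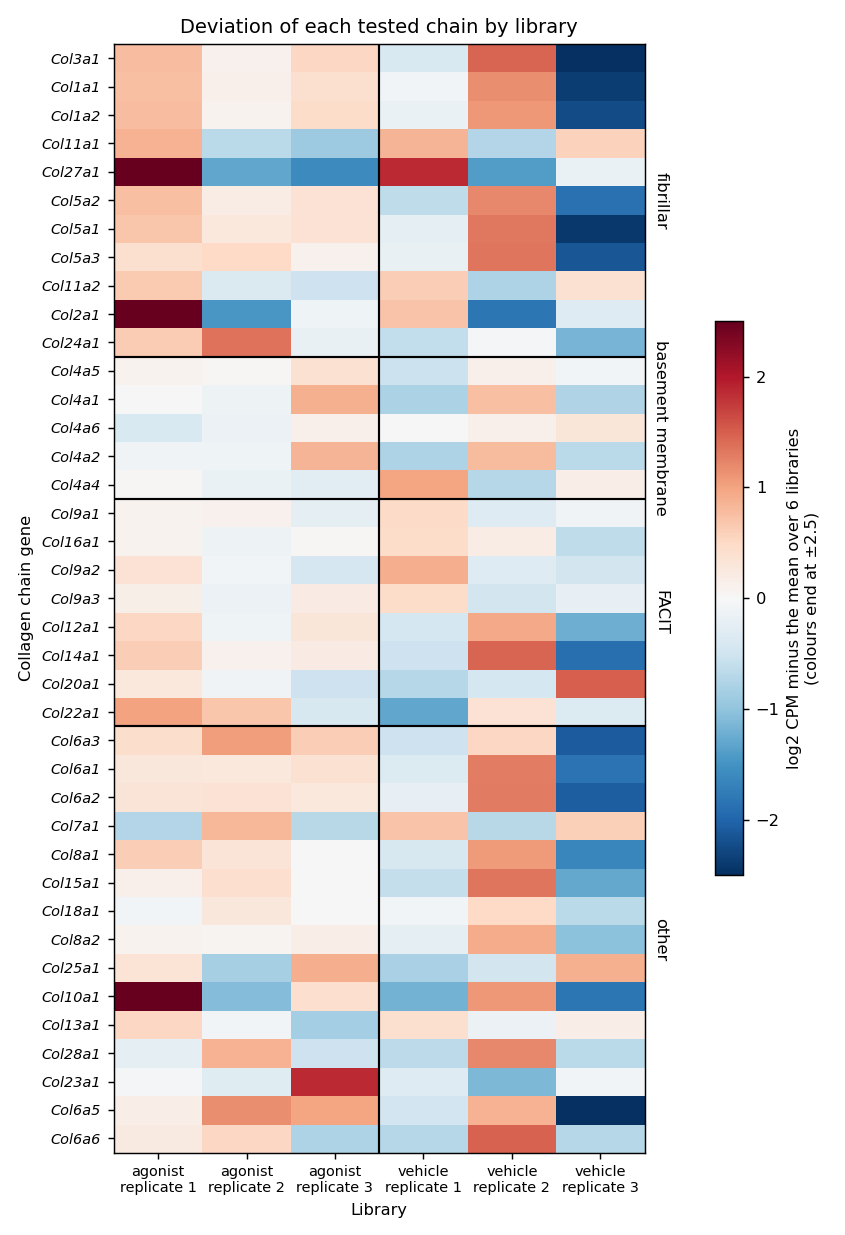
Deviation of each tested collagen chain (rows, grouped by class) in each library (columns, agonist on the left) from its mean over the 6 libraries, in log2 of TMM-scaled CPM. Chains of types I, III, V, VI, VIII, XIV and XV are red in vehicle replicate 2 and blue in vehicle replicate 3, whereas Col2a1 and Col27a1 are red in agonist replicate 1 and vehicle replicate 1.

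Among the fibrillar chains, those of types I and III were the most abundant. Col3a1 (chromosome 1, 45311538 to 45349706, plus strand, in the GRCm38 build), the single chain of type III collagen, had 424, 354 and 407 TPM in agonist replicates 1 to 3 and 232, 645 and 52.9 TPM in vehicle replicates 1 to 3. The agonist libraries lay close together inside a vehicle range that spanned a factor of 12.2, and the log2 fold change was 0.20 ± 0.85 (SE, n = 3 each). Col1a1 (chromosome 11, 94936224 to 94953042, plus strand), which encodes the chain present in double dose in type I collagen, had 193, 135 and 153 TPM with agonist and 121, 221 and 22.8 TPM with vehicle. Col1a2 (chromosome 6, 4504814 to 4541544, plus strand), its partner chain, had 178, 119 and 144 TPM with agonist and 103, 191 and 22.8 TPM with vehicle. Both showed the same order of libraries as Col3a1, with vehicle replicate 2 highest, vehicle replicate 3 lowest and the groups overlapping. Their log2 fold changes were 0.27 ± 0.76 and 0.35 ± 0.73. Leaving out vehicle replicate 3 turned the direction of all 3 genes, to -0.30 for Col3a1, -0.22 for Col1a1 and -0.12 for Col1a2, and leaving out vehicle replicate 2 moved them to 1.57, 1.23 and 1.301. Col3a1 was also at -0.05 without vehicle replicate 1.

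The type V chains, which seed fibrils and set their diameter, followed types I and III. Col5a2 had 31.7, 22.8 and 24.2 TPM with agonist and 13.2, 37.1 and 5.26 TPM with vehicle. Col5a1 had 24.5, 21.4 and 21.1 TPM with agonist and 12.1, 33.5 and 3.20 TPM with vehicle. Col5a3 was scarcer, with 3.87, 4.41 and 3.16 TPM with agonist and 2.83, 6.38 and 0.68 TPM with vehicle. In all of them the agonist libraries lay within the vehicle range, and the log2 fold changes were between 0.07 and 0.35.

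A second group of fibrillar chains, better known from cartilage, did not follow that order. Col11a1 (chromosome 3, 114030540 to 114220718, plus strand), a type XI chain that nucleates cartilage fibrils, had 59.3, 24.7 and 18.9 TPM with agonist and 74.1, 17.5 and 51.5 TPM with vehicle, a log2 fold change of -0.39 ± 0.59 that was -1.17 without agonist replicate 1 and -0.08 without vehicle replicate 1. Agonist replicate 1 and vehicle replicates 1 and 3 were high and the other libraries low. Col27a1, the type XXVII chain of growth cartilage, had 79.4, 5.32 and 4.19 TPM with agonist and 50.3, 4.31 and 11.9 TPM with vehicle. Its highest and lowest values, 18.9-fold apart, were both agonist libraries. The log2 fold change of 0.46 ± 1.31 was -2.18 without agonist replicate 1 and 1.84 without vehicle replicate 1. Col2a1, the main collagen of cartilage, had 4.92, 0.32 and 0.56 TPM with agonist and 1.09, 0.14 and 0.48 TPM with vehicle, and its log2 fold change of 1.79 ± 1.22 was -0.52 without agonist replicate 1. Col11a2 stayed between 1.07 and 2.07 TPM with agonist and between 1.41 and 3.73 TPM with vehicle.

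Col24a1 (chromosome 3, 145292472 to 145552011, plus strand), a minor fibrillar chain known from developing bone, was the 1 chain with an unadjusted p under 0.05. It had 0.79, 0.85 and 0.41 TPM with agonist and 0.23, 0.38 and 0.14 TPM with vehicle, so that the groups did not overlap in TPM. As counts these were 59, 109 and 37 with agonist and 28, 37 and 17 with vehicle, and in CPM, with or without TMM factors, the groups overlapped. The log2 fold change was 1.33 ± 0.55 (95% interval 0.05 to 2.60; edgeR adjusted p = 0.99) and ran from 0.86 without agonist replicate 2 to 1.68 without vehicle replicate 2. The gene body is overlapped by D530037P16Rik on the same strand and by 9530034A14Rik on the other, and the mean length that RSEM gave the gene was 43.02% of its longest annotated transcript, so these counts are uncertain. As 1 chain of 39 is near the background share, it is not read as a response.

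**Figure D3:**
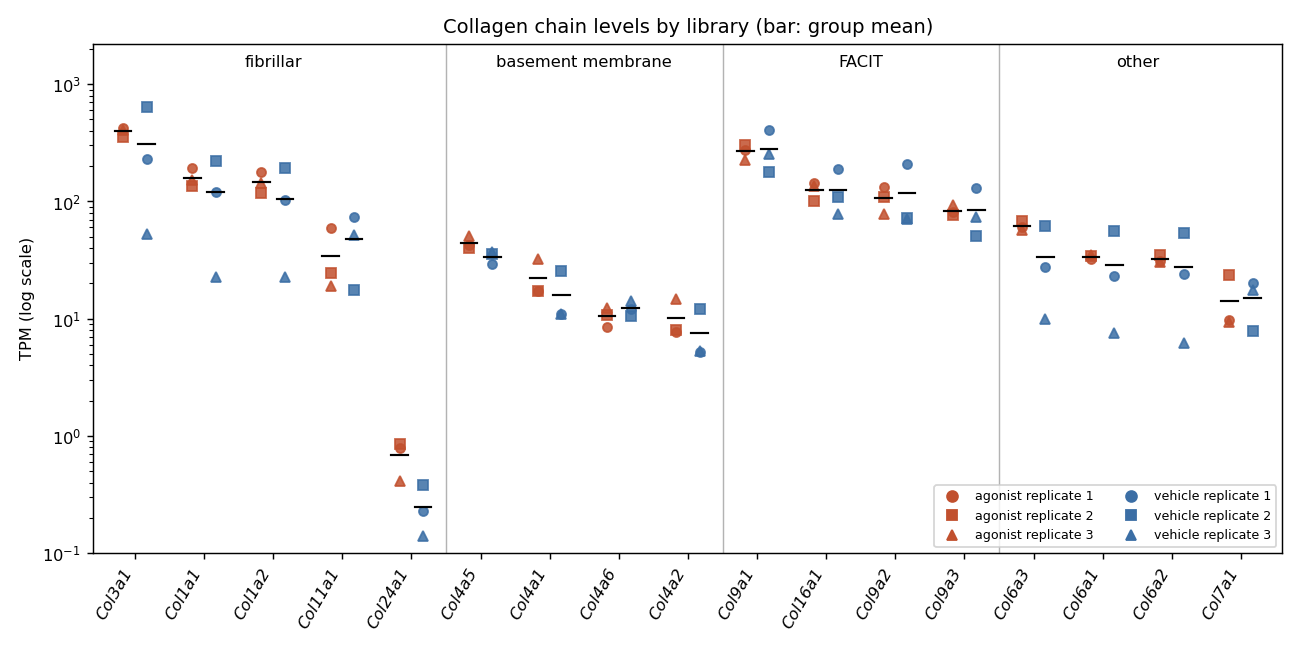
TPM on a log scale (y axis) of 17 collagen chains (x axis, by class), the most abundant 4 of each class and Col24a1, with agonist libraries in orange on the left and vehicle libraries in blue on the right of each pair of columns and bars at the group means. For Col3a1 the agonist libraries lie between 354 and 424 TPM and the vehicle libraries between 52.9 and 645 TPM, whereas Col4a5 and Col4a6 show little spread in either group.

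Promoters are shown for 2 pairs of chains, to set their elements side by side. The 250 bases before the start site are from RefSeq on GRCm38.p6, read 5′ to 3′ on the strand of the gene, and capitals mark 3 elements in either orientation, the box spelled TATAAA, the box named for its letters CCAAT, and the element known as the GC box with the letters GGGCGG. They are those of Col1a2 and Col3a1, whose levels had the same order of libraries, and of Col9a1 (the first of its 2 listed starts) and Col9a2, both of type IX. The RefSeq starts of Col1a2 and Col9a2 lie within the gene spans given for them here, so their windows overlap those spans.
Col1a2, chr6:4505368-4505617: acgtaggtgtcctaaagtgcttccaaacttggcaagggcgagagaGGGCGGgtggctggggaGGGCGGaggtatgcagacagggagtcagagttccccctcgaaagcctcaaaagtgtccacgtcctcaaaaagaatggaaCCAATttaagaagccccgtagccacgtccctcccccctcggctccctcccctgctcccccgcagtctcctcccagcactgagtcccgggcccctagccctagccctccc
Col3a1, chr1:45311288-45311537: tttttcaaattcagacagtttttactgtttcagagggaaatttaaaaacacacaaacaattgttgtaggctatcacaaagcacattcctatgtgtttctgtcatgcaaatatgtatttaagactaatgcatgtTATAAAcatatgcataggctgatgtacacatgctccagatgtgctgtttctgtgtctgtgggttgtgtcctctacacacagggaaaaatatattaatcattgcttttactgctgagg
Col9a1, chr1:24177360-24177609: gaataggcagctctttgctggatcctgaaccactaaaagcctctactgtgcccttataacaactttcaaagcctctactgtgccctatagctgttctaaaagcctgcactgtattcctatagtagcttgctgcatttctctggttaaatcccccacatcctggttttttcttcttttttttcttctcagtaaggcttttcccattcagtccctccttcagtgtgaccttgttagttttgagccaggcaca
Col9a2, chr4:121039316-121039565: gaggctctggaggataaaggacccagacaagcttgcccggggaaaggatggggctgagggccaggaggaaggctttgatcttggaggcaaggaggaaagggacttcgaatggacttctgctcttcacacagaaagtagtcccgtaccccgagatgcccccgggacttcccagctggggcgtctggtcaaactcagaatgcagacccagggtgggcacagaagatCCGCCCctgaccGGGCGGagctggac
Col1a2 carries GC boxes and a CCAAT box, Col3a1 a TATAAA string and neither of the others, and Col9a2 only GC boxes, while none of these letters stand in the Col9a1 window. Promoters were listed for 34 of the 43 genes. Counting 1 start a gene, GGGCGG stood in 21 of these 34 windows, 61.8%, and in 32.9% of all 27025 promoters. CCAAT stood in 32.4% of member windows and 34.5% of all promoters, and TATAAA in 11.8% of member windows and 13.0% of all. AACAAT, a core string of SOX factor motifs, stood in 2.94% of member windows and 9.65% of all promoters. CAGACA, a core string of SMAD elements, stood in 23.5% of member windows and 17.1% of all promoters. All motifs were sought on both strands, and a string in such a window is a description only.

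The basement membrane chains had the lowest median within-group SD of the 4 classes, 0.61 on the log2 scale, beside 0.69 for FACIT, 0.95 for the other and 1.24 for the fibrillar chains. Col4a5 (X chromosome, 141475385 to 141689234, plus strand), a chain of the α5(IV) network, had 42.8, 40.3 and 50.9 TPM with agonist and 29.2, 35.6 and 36.7 TPM with vehicle. The groups overlapped in neither TPM nor CPM by library size, but did in TMM-scaled CPM, and the log2 fold change was 0.30 ± 0.20 (95% interval -0.17 to 0.77). Col4a6 (X chromosome, 141165403 to 141474076, minus strand), which joins α5 in epithelial basement membranes, had 8.59, 10.7 and 12.3 TPM with agonist and 12.2, 10.5 and 14.2 TPM with vehicle, a log2 fold change of -0.26 ± 0.17. These 2 neighbours differed in sign, each in all 6 fits with 1 library left out, and neither passed the test. Their start sites lie 1309 bases apart and point away from each other.

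The widespread basement membrane chains Col4a1 (chromosome 8, 11198423 to 11312826, minus strand) and Col4a2 (chromosome 8, 11312805 to 11449287, plus strand) form the common type IV molecule together. Col4a1 had 17.2, 17.2 and 32.1 TPM with agonist and 10.9, 25.8 and 11.0 TPM with vehicle. Col4a2 had 7.64, 8.04 and 14.8 TPM with agonist and 5.20, 12.1 and 5.27 TPM with vehicle. In both, agonist replicate 3 was highest, followed by vehicle replicate 2, and the groups overlapped. The log2 fold changes were 0.40 ± 0.50 and 0.32 ± 0.50, and without agonist replicate 3 they were 0.01 and -0.07. Agonist replicate 3 was also the library richest in the 11 myoepithelial and smooth muscle markers, with 408 TPM beside 205 and 168 TPM in the other agonist libraries and 178, 179 and 59.99 TPM in vehicle libraries, and the part of those cells in the type IV values was not tested. Of these markers 10 of 11 were positive with a median log2 fold change of 0.89. At an unadjusted p under 0.05 were 3 of them, all contractile genes, where 3.09% of all genes were. Myh11 had 0.52, 0.78 and 7.33 TPM with agonist and 0.6, 0.38 and 0.28 TPM with vehicle (2.76 ± 1.07). Acta2 had 30.9, 18.3 and 97.7 TPM with agonist and 15.1, 17.2 and 5.08 TPM with vehicle (1.91 ± 0.77). Both were highest in agonist replicate 3, with groups that overlapped in TMM-scaled CPM (edgeR adjusted p = 0.99). The annotated spans of Col4a1 and Col4a2 overlap by their first bases on opposite strands, so that reads there cannot be told apart without a stated strand setting. Col4a4, of the kidney-type network, stayed at 0.37 to 0.45 TPM with agonist and 0.23 to 0.96 TPM with vehicle.

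Type IX collagen, a FACIT that coats cartilage fibrils, was abundant in these tumours. Col9a1 (chromosome 1, 24177610 to 24252684, plus strand), its α1 chain, had 276, 302 and 224 TPM with agonist and 405, 180 and 256 TPM with vehicle, a log2 fold change of -0.07 ± 0.23. Col9a2 (chromosome 4, 121039385 to 121055322, plus strand) had 133, 109 and 78.8 TPM with agonist and 209, 72.3 and 71.2 TPM with vehicle, a log2 fold change of -0.19 ± 0.40. Col9a3 (chromosome 2, 180597790 to 180622189, plus strand), the remaining partner of the molecule, had 81.1, 76.4 and 92.9 TPM with agonist and 131, 50.3 and 73.2 TPM with vehicle, a log2 fold change of 0.08 ± 0.25. Vehicle replicate 1 was the highest library for every type IX chain, and the agonist values lay within the vehicle range. Together the 3 chains summed to 490, 487 and 396 TPM with agonist and 745, 302 and 400 TPM with vehicle, so vehicle replicate 3, the library with the least of types I and III, was in the middle of the vehicle range for type IX.

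Chondrocyte markers were low but not all absent. The 8 chondrocyte markers summed to between 5.53 and 18.9 TPM with agonist and between 4.42 and 39.5 TPM with vehicle. Matn1 was at 0 in all libraries, Acan reached at most 0.10 TPM, Hapln1 at most 0.05 TPM and Ucma at most 1.93 TPM. Cnmd, a cartilage membrane protein, had 13.1, 0.95 and 2.87 TPM with agonist and 8.44, 0.97 and 7.06 TPM with vehicle, high in agonist replicate 1 and vehicle replicates 1 and 3 as Col11a1 was, and Snorc reached 6.38 TPM, in vehicle replicate 3. The part of such cells in the values of the cartilage-type chains was not tested. Comp, a cartilage matrix protein that fibroblasts also make, reached 26.2 TPM in vehicle replicate 1. Of 4 tested markers 2 were positive and 0 at an unadjusted p under 0.05, with a median log2 fold change of -0.23, Comp at -2.34 ± 1.29 and Matn3 at 0.81 ± 0.66. The 8 Schwann cell markers summed to between 144 and 258 TPM with agonist and between 223 and 497 TPM with vehicle, mostly from Sox10, a factor that mammary progenitor cells also express. Sox10 had 113, 230 and 177 TPM with agonist and 463, 195 and 392 TPM with vehicle, a log2 fold change of -0.97 ± 0.31 (edgeR adjusted p = 0.99), and the groups overlapped in TPM but not in TMM-scaled CPM. Of the 8 Schwann cell markers 6 were negative with a median of -0.20, and 2 were at an unadjusted p under 0.05, Sox10 and Mbp, a myelin gene at -0.44 ± 0.16. Sox9, an activator of cartilage collagen genes that was chosen after its values were seen, had 113, 32.5 and 54.4 TPM with agonist and 62.1, 28.6 and 64.5 TPM with vehicle. The part of either factor in the collagen values was not tested.

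Col16a1 (chromosome 4, 130047840 to 130099283, plus strand), a chain found near basement membranes and fibrils, had 142, 101 and 134 TPM with agonist and 189, 109 and 77.9 TPM with vehicle, with overlapping groups and a log2 fold change of -0.07 ± 0.27. Col12a1, which bridges type I fibrils, had between 25.3 and 44.7 TPM with agonist and between 10.2 and 37.4 TPM with vehicle. Col14a1, a fibroblast product of similar function, had between 17.2 and 21.6 TPM with agonist and between 4.02 and 34.5 TPM with vehicle. Vehicle replicate 3 was the lowest library for all 3 genes. Col20a1 and Col22a1 were scarce, at no more than 1.57 TPM and 0.12 TPM in any library. The median log2 fold change over the 8 tested FACIT chains was -0.02, with 4 positive and 4 negative.

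In the class of other collagens, type VI was the most abundant. Col6a1 (chromosome 10, 76708792 to 76726168, minus strand) had 32.2, 34.2 and 34.8 TPM with agonist and 23.2, 56.1 and 7.59 TPM with vehicle, a log2 fold change of 0.08 ± 0.70. Col6a2 (chromosome 10, 76595762 to 76623630, minus strand), its neighbour and partner chain, had 31.2, 34.7 and 30.3 TPM with agonist and 24.0, 53.4 and 6.19 TPM with vehicle, a log2 fold change of 0.06 ± 0.72. Both were nearly even among agonist tumours and spread around them among vehicle tumours. Col6a3 (chromosome 1, 90765923 to 90843971, minus strand), the largest chain of the molecule, had 61.0, 67.9 and 57.3 TPM with agonist and 27.8, 62.1 and 10.01 TPM with vehicle. In TPM the groups overlapped through vehicle replicate 2 alone, and the log2 fold change was 1.07 ± 0.59 (95% interval -0.36 to 2.497; edgeR adjusted p = 0.99), between 0.64 without vehicle replicate 3 and 1.81 without vehicle replicate 2. DESeq2 placed the gene under an unadjusted p of 0.05 without calling it. Col6a4, Col6a5 and Col6a6 were at most at 0.36 TPM.

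Col7a1 (chromosome 9, 108953586 to 108984875, plus strand), the anchoring fibril chain that ties epithelial basement membrane to stroma, had 9.73, 23.4 and 9.31 TPM with agonist and 20.1, 7.81 and 17.6 TPM with vehicle. High and low libraries occurred in both groups, and the log2 fold change of -0.32 ± 0.55 ranged from -1.03, with agonist replicate 2 left out, to -0.06, with agonist replicate 1 left out. The network chain Col8a1, a product of vessels and fibroblasts, ranged from 9.90 to 14.9 TPM with agonist and from 3.23 to 17.5 TPM with vehicle. Col15a1 and Col18a1, the multiplexins at the outer face of basement membranes, had 9.48 to 12.2 TPM and 4.50 to 7.66 TPM with agonist, and 3.40 to 18.9 TPM and 3.53 to 7.17 TPM with vehicle. Col10a1, a marker of hypertrophic cartilage, had 2.83, 0.22 and 0.63 TPM with agonist and 0.21, 0.86 and 0.12 TPM with vehicle, and its log2 fold change of 1.49 was -0.06 without agonist replicate 1. The transmembrane collagen Col23a1 had a log2 fold change of 1.404 ± 0.72 at 0.10, 0.09 and 0.40 TPM with agonist and 0.09, 0.04 and 0.10 TPM with vehicle, where agonist replicate 3 alone stood out, and the fold change was 0.31 without it. The median over the 15 tested chains of the class was 0.08, with 9 positive and 6 negative, and it was -0.17 without vehicle replicate 3 and 1.11 without vehicle replicate 2.

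Chains of 1 molecule, or of molecules that share fibrils, were also compared as ratios within each library, 6 in all. Col6a3 over Col6a2 was 1.96, 1.96 and 1.89 with agonist and 1.16, 1.16 and 1.62 with vehicle. Every agonist tumour thus held more Col6a3 per Col6a2 than any vehicle tumour, with a mean of 1.94 ± 0.04 in agonist and 1.31 ± 0.26 in vehicle libraries (SD, n = 3) and a log2 difference of 0.58. The two-sided exact permutation test gave p = 0.1, the smallest that 3 against 3 allows, and 0.3 after Benjamini-Hochberg adjustment over the 6 ratios. The difference was 0.76 on the log2 scale with counts in place of TPM, at 1.08, 1.58 and 1.27 with agonist and 0.80, 0.57 and 0.97 with vehicle, and between 0.50 and 0.74 with 1 library left out. The mean length that RSEM gave Col6a3 was 26.2% of its longest transcript, so its level beside Col6a2 depends on which isoforms the reads were assigned to.

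The other ratios were more alike between the groups. Col4a1 over Col4a2 was 2.25, 2.14 and 2.17 with agonist and 2.10, 2.13 and 2.08 with vehicle, which did not overlap but lay only 0.06 apart on the log2 scale (exact permutation p = 0.1, adjusted p = 0.3). Col1a1 over Col1a2 stayed between 1.06 and 1.14 with agonist and between 0.999 and 1.17 with vehicle, although the highest and lowest levels of Col1a1 were 9.71-fold apart. Col6a1 over Col6a2 was between 0.98 and 1.15 with agonist and between 0.96 and 1.23 with vehicle. The exact p-values of these and of the ratios Col5a1 over Col5a2 and Col3a1 over Col1a1 were between 0.7 and 0.9, and 0.9 after adjustment.

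**Figure D4:**
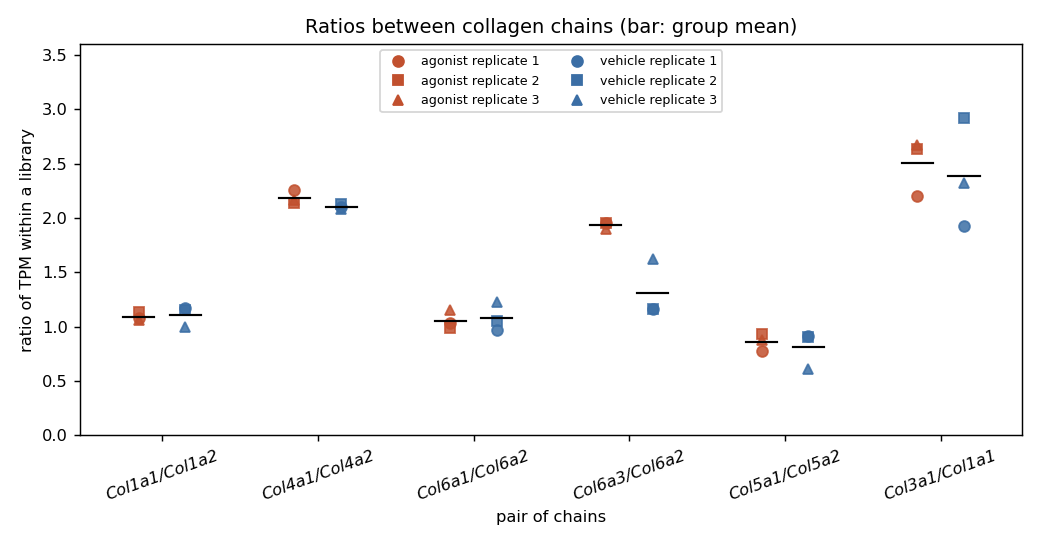
Ratio of the TPM of chains within each library (y axis) for 6 pairs of collagen chains (x axis), with agonist libraries in orange on the left, vehicle libraries in blue on the right and bars at the group means. Col6a3/Col6a2 lies between 1.89 and 1.96 in agonist libraries and between 1.16 and 1.62 in vehicle libraries, and Col1a1/Col1a2 lies near 1.1 in both.

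The sums of fibroblast markers and of types I and III had the same order of libraries. The 15 fibroblast markers, which hold no collagen, summed to 891, 556 and 672 TPM with agonist and 400, 1017 and 207 TPM with vehicle, with 0 of 15 at an unadjusted p under 0.05, 12 positive and a median log2 fold change of 0.23. Types I and III summed to 795, 607 and 704 TPM with agonist and 456, 1057 and 98.5 TPM with vehicle. Vehicle replicate 2 was highest and vehicle replicate 3 lowest in both, and the part of the number of fibroblasts in the collagen values was not tested. Among the markers Prrx1, a mesenchymal transcription factor, had the smallest p and a log2 fold change of 0.61 ± 0.58, and Fbln2, a matrix protein, was at 0.39 ± 0.49. Adipocyte markers also ran from lowest in vehicle replicate 3 to highest in vehicle replicate 2, with 72.7 to 507 TPM with agonist and 32.9 to 621 TPM with vehicle. Endothelial markers had 33.0 to 56.8 TPM with agonist and 24.6 to 45.1 TPM with vehicle, pericyte markers 28.7 to 35.3 and 32.8 to 35.9 TPM, skeletal muscle markers 459 to 697 and 428 to 519 TPM, and leukocyte markers 129 to 214 and 48.0 to 148 TPM, agonist before vehicle in each. All 10 endothelial markers were positive with a median of 0.32 (Eng 0.52 ± 0.40, Emcn 0.38 ± 0.35), and all 10 skeletal muscle markers with a median of 0.22 (Myh4 0.50 ± 0.25, Myh1 0.55 ± 0.32), with 0 at an unadjusted p under 0.05 in either list. Adipocyte markers had a median of -0.40 with 2 of 7 positive (Plin4 -0.53 ± 0.51, Adipoq -0.51 ± 1.07), luminal markers -0.17 with 2 of 10 positive (Cldn3 -0.44 ± 0.22, Krt18 -0.17 ± 0.14), and leukocyte markers 0.20 with 5 of 8 positive (S100a8 1.11 ± 0.60, Ptprc 0.38 ± 0.37), again with 0 at that p. The Krt18 groups overlapped in TPM but not in TMM-scaled CPM, where 4.22% of all genes were lower with agonist without overlap. Pericyte markers had 3 of 6 positive and a median of 0.03, with Abcc9 at 0.43 ± 0.33. Notch3, a receptor of mural cells, was the 1 pericyte marker at that p, at -0.79 ± 0.23 (edgeR adjusted p = 0.99). Its levels were 6.86, 7.93 and 7.8 TPM with agonist and 17.7, 6.93 and 18.1 TPM with vehicle, overlapping in TPM but not in TMM-scaled CPM. The part of these cells in the collagen values was not tested.

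**Figure D5:**
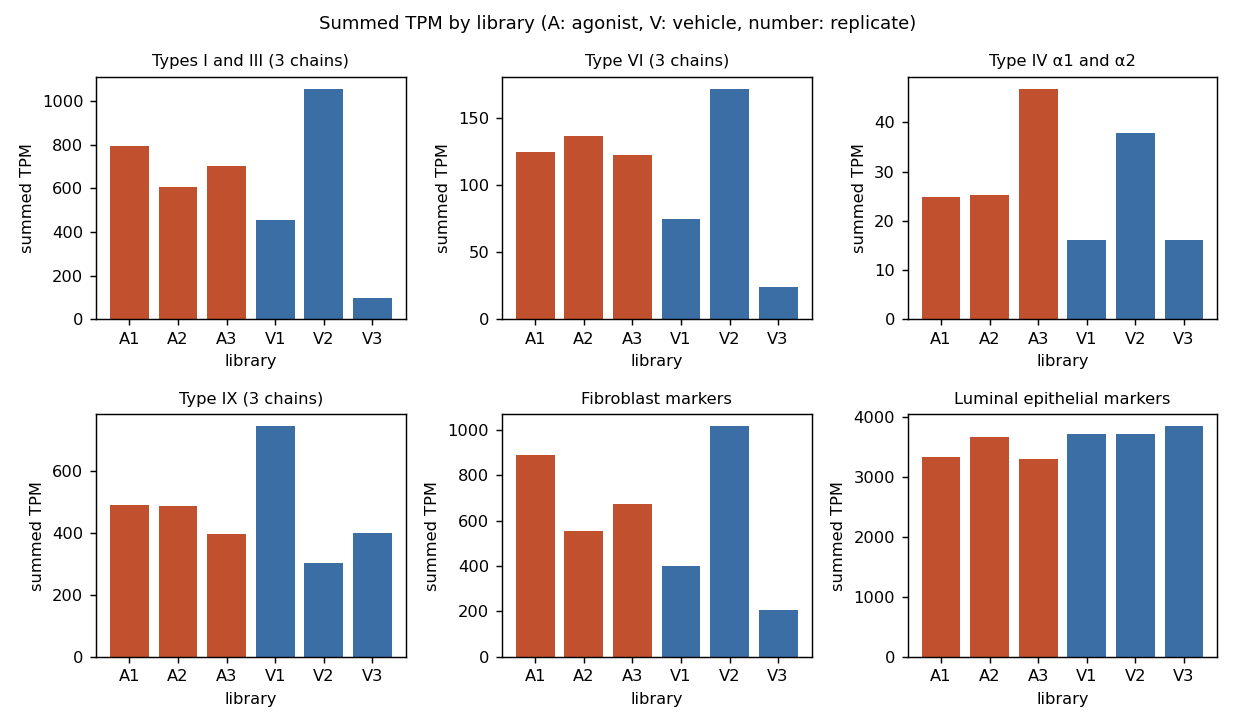
Summed TPM (y axes, from 0) in each library for collagen types I and III, VI, IV (α1 and α2) and IX and for fibroblast and luminal epithelial markers, with agonist libraries (A1 to A3) on the left and vehicle libraries (V1 to V3) on the right. Types I and III reach 1057 TPM in V2 and 98.5 TPM in V3, fibroblast markers 1017 and 207 TPM in the same libraries, and type IX collagen is highest in V1 at 745 TPM.

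Genes for folding and modification of collagen chains had a median within-group SD of 0.35 on the log2 scale, beside 0.90 for the chains. Of the 22 tested, 0 were at an unadjusted p under 0.05, 8 were positive and 14 negative, with a median log2 fold change of -0.09, and they summed to between 1895 and 1987 TPM with agonist and between 1571 and 2297 TPM with vehicle. P4hb, a subunit of prolyl 4-hydroxylase, which stabilises the triple helix, had 391, 414 and 411 TPM with agonist and 489, 366 and 591 TPM with vehicle (-0.27 ± 0.15), groups that overlapped in TPM but not in TMM-scaled CPM. Colgalt2, a collagen galactosyltransferase, had a log2 fold change of 1.11 ± 0.62 at under 1 TPM in every library. The 12 tested genes for propeptide removal and cross-linking had a within-group SD of 1.09. Of these, 5 were positive and 7 negative around a median of -0.02, with 0 at an unadjusted p under 0.05. Adamts3, which trims procollagen, was at -0.59 ± 0.35 and Tll1, a procollagen C-proteinase, at -0.54 ± 0.67.

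Of the 11 fibril-binding proteoglycan genes, 10 were positive with a median of 0.27 and 0 at an unadjusted p under 0.05, and they summed to 268 to 383 TPM with agonist and 62.8 to 522 TPM with vehicle. Ecm2 (0.59 ± 0.59) and Omd (0.47 ± 0.59) had the smallest p. Collagen receptors had 4 of 10 positive, a median of -0.04 and 1 at an unadjusted p under 0.05, Ddr1, the epithelial receptor kinase that fibrillar and type IV collagen activate. Ddr1 had 26.3, 51.7 and 33.4 TPM with agonist and 64.7, 40.6 and 67.0 TPM with vehicle, overlapping groups with a log2 fold change of -0.66 ± 0.25 (edgeR adjusted p = 0.99), and Itga10, a chondrocyte integrin, was at -0.33 ± 0.31. Basement membrane partners of type IV had 8 of 15 positive, a median of 0.06 and 2 at an unadjusted p under 0.05, opposite in sign. Lama3, a chain of epithelial laminins, averaged 1.48 ± 0.24 TPM with agonist and 0.77 ± 0.14 TPM with vehicle (SD, n = 3 each), without overlap (log2 fold change 0.85 ± 0.32, edgeR adjusted p = 0.99), while Lamb2 had 41.7, 41.7 and 41.4 TPM with agonist and 67.8, 32.9 and 50.4 TPM with vehicle (-0.41 ± 0.17, edgeR adjusted p = 0.99), overlapping in TPM but not in TMM-scaled CPM. No gene of these lists passed the threshold over all genes tested.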

How the data were processed

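The members and gene lists were chosen with earlier results of these data known. RNA of each tumour was extracted with a column kit, per the labels' protocols. The deposited tables hold RSEM expected counts per gene and TPM from the same reads, per the file headers, with the mean transcript length of each gene as another deposited column. GRCm38, STAR 2.7.9a, cutadapt 3.5, RSEM 1.3.1, FastQC 0.11.9, R 4.1 and DESeq2 1.36.0 appear, per the submitters' processing notes. The sources used here do not give the annotation release or strand setting, so reads of overlapping or antisense genes cannot be told apart. TPM of chains with several isoforms depend on RSEM's isoform assignment: in 18 of the 43 genes the mean length was under 80% of the longest GENCODE M21 transcript, the source of all gene positions.

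Expected counts were rounded to whole numbers. Genes were tested with edgeR 4.0.16 in R 4.3.3 (TMM, filterByExpr with a minimum count of 10 and a total of 15, robust quasi-likelihood F test, no covariates), with Benjamini-Hochberg adjustment over 17396 genes. The SE was derived from the log2 fold change and F. Deviations used log2 TMM-scaled CPM with a prior count of 2. The test was run on simulated data first. Chains were printed by library if among the 4 most abundant of a class, at an unadjusted p under 0.05 or not overlapping in TMM-scaled CPM, and others with them where described. From each list the 2 genes with the smallest p were named, with list genes added after their values were seen. Alternatives were scaling by upper quartile or by DESeq2's factors, no count filter or a stricter one (1 CPM in 3 libraries), replicate number as a block, omission of each library and the Wald test of DESeq2 1.42.0.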

Additional observations from a re-analysis of the deposited data

How the results depend on the processing

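With 3 libraries a group and 1 vehicle library low in most stromal chains, differences within the intervals above were not detectable. No chain passed an adjusted p of 0.05 in any of the fits run, so none of the directions below is a call. DESeq2 called 4 of all genes where edgeR called 0. Chains at an unadjusted p under 0.05 numbered 1 in the edgeR fit, 2 with no low-count filter, 0 with the stricter filter, 2 with the replicate block and 2 with DESeq2, and 0 to 13 with 1 library left out. The shares of all genes at that p were, in the same order, 3.09%, 2.9%, 3.09%, 2.81% and 3.84%, and 1.76% to 13.6% with 1 library left out. The 13 chains and the 13.6% of all genes were both from the fit without vehicle replicate 2, where the share of the chains was the larger. Whether the replicate numbers pair the libraries is not stated. Over all genes, libraries of the same number had correlations of 0.172, 0.038 and 0.063 for numbers 1 to 3. Libraries of different numbers had correlations between -0.109 and 0.055, so all of these were weak. With the block the median log2 fold change was 0.45 over all chains, 0.87 over fibrillar, 0.32 over basement membrane, 0.06 over FACIT, against -0.02 without it, and 0.37 over the other chains, and Col15a1 was at 0.37, Col27a1 at -0.19, Col8a2 at 0.22 and Col28a1 at 0.079 on the log2 scale, directions opposite to the fit without it. For the 6 chain ratios the block gives the same difference by construction, as 0.58 for Col6a3/Col6a2. Chains whose groups did not overlap in CPM numbered 0 with TMM factors and 2 by library size alone, an alternative chosen after seeing the data. Col8a2, near 0, was at 0.0304 with upper-quartile factors and 0.0005 without a filter.

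With 1 library left out, the number of positive chains ran from 14 to 28, the median over all chains from -0.15 to 1.04, over fibrillar chains from -0.12 to 1.301, over basement membrane chains from -0.07 to 0.44, over FACIT chains from -0.14 to 0.18 and over the others from -0.17 to 1.11. The log2 fold change turned in at least 1 of these 6 fits for 29 of the 39 chains; the cause was not tested. It ran from -0.38 to 1.201 for Col6a1, from -0.15 to 0.42 for Col18a1, from -0.22 to 1.23 for Col1a1, from -0.42 to 1.18 for Col5a3, from -0.93 to 0.50 for Col20a1, from -0.41 to 1.15 for Col6a2, from -0.43 to 1.37 for Col14a1, from -0.52 to 2.56 for Col2a1, from -0.63 to 0.10 for Col11a2, from -0.088 to 1.56 for Col5a2. The range was -0.30 to 1.57 for Col3a1, -0.24 to 0.19 for Col9a1, -0.29 to 1.38 for Col5a1, -0.11 to 0.39 for Col9a3, -0.46 to 1.09 for Col15a1, -0.43 to 0.38 for Col9a2, -0.12 to 1.301 for Col1a2, -0.074 to 1.01 for Col4a2, -0.13 to 1.04 for Col12a1, -0.061 to 2.96 for Col10a1. Further ranges were -0.32 to 0.17 for Col16a1, -0.73 to 0.90 for Col6a6, -2.18 to 1.84 for Col27a1, -0.35 to 0.68 for Col8a2, -0.61 to 0.095 for Col13a1, -0.20 to 0.93 for Col25a1, -0.77 to 0.076 for Col4a4, -0.16 to 1.22 for Col8a1, -0.66 to 0.91 for Col28a1. Log2 differences of ratios ran from -0.0902 to 0.023 for Col1a1/Col1a2, from -0.11 to 0.065 for Col6a1/Col6a2, from -0.083 to 0.21 for Col5a1/Col5a2, from -0.062 to 0.24 for Col3a1/Col1a1. Among chains that kept their sign, the range was 0.13 to 0.44 for Col4a5, -0.41 to -0.15 for Col4a6, 0.01 to 1.09 for Col4a1, 0.55 to 1.53 for Col22a1 and 0.54 to 2.28 for Col6a5. Col22a1 (0.95 ± 0.68 with all libraries) and Col6a5 (1.08 ± 0.90) were scarce, with 4 to 24 and 1 to 42 counts in a library.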
